A study of Bos taurus with 4 samples.

Results

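The genes described here build the basement membrane, the microfibrils and elastic fibres, and the adhesive and remodelling parts of the extracellular matrix. They were chosen from a list of 46 symbols, and every non-control probe whose reference accession belonged to a listed bovine gene was taken. Probes were found for 33 of the 46 genes, out of 11054 genes with a symbol on the array, and all 33 were measured above background, as were 9425 genes in all. Those 33 genes had 101 probes, of which 97 were tested. Not matched to a probe, and so not analysed here, were COL4A2, LAMA2, LAMA4, LAMB1, LAMB2, LAMC1, HSPG2, COL6A3, COL12A1, COL14A1, FBLN2, TNC and THBS2, which left no laminin subunit and no perlecan among the measured genes.

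RNA came from the semitendinosus muscle of 15-month-old bulls of the Hereford (HER, beef) and Holstein-Friesian (HF, dairy) breeds, 4 bulls per breed. Each of 4 two-colour arrays on 1 slide held a HER and an HF sample, and the study asked how muscle gene expression differs between a beef and a dairy breed. Visible fat and connective tissue had been trimmed away before RNA was isolated, which limits what the samples hold of the matrix around the muscle. Over the 8 channel samples, median signals before background correction ran from 77 to 160.5 intensity units, beside local backgrounds of 37 to 41. No spot was saturated, and 65.2% to 82.1% of probes were well above background. All values below are log2 ratios of Cy5 over Cy3, where 1 unit is a doubling.

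The breed was not put on the sign of these ratios. The dye labels give Cy3 to HER and Cy5 to HF on every array, but their free text also says the dyes were swapped, and the direction the study gives its own changes is the opposite of the dye labels. With every array in the same orientation, breed and dye cannot be told apart. In bulk muscle RNA, fewer cells of a type and less RNA per cell cannot be told apart either.

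In muscle, each fibre lies in a basement membrane, a thin sheet in which laminin and type IV collagen networks are tied together by nidogens and perlecan. Outside it, fibrillin microfibrils with fibulins and microfibril-associated proteins guide the assembly of elastin, and matricellular proteins such as thrombospondins, tenascins and periostin tune adhesion and growth factor access. Metalloproteinases cut these proteins and the tissue inhibitors of metalloproteinases (TIMPs) hold the enzymes in check.

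Among the 33 measured genes, EFEMP1, TNXB, MFAP4 and FBLN5 were higher in Cy5 and COL4A1 was lower. Each gene was read at its brightest tested probe (its lead probe) and called where limma's p, adjusted by Benjamini-Hochberg over all 32606 tested probes, was under 0.05. The 4 higher genes are 12.1% of the 33, against a background of 2.92% of the 9425 genes called higher, and the 1 lower gene is 3.03%, against a background of 1.54%. The members were chosen with earlier results of these data known, so these shares are a description and not a test. None of the other 28 genes passed. An unadjusted p under 0.05 in limma was reached by 13 of all 33, beside 2665 of the 9425 genes. That background applies as well to the unadjusted counts of single lists given below. The median ratio of the 33 genes was 0.09, against 0.02 over all genes. On all 4 arrays 13 of the 33 kept 1 sign, beside 3224 of the 9425 genes. By probe, 8 of 97 were called, 6 higher and 2 lower, against 3.32% of all tested probes. No call held when any 1 of the 4 arrays was left out, when adjusted p for these 5 genes lay between 0.0588 and 0.134.

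**Figure D1:**
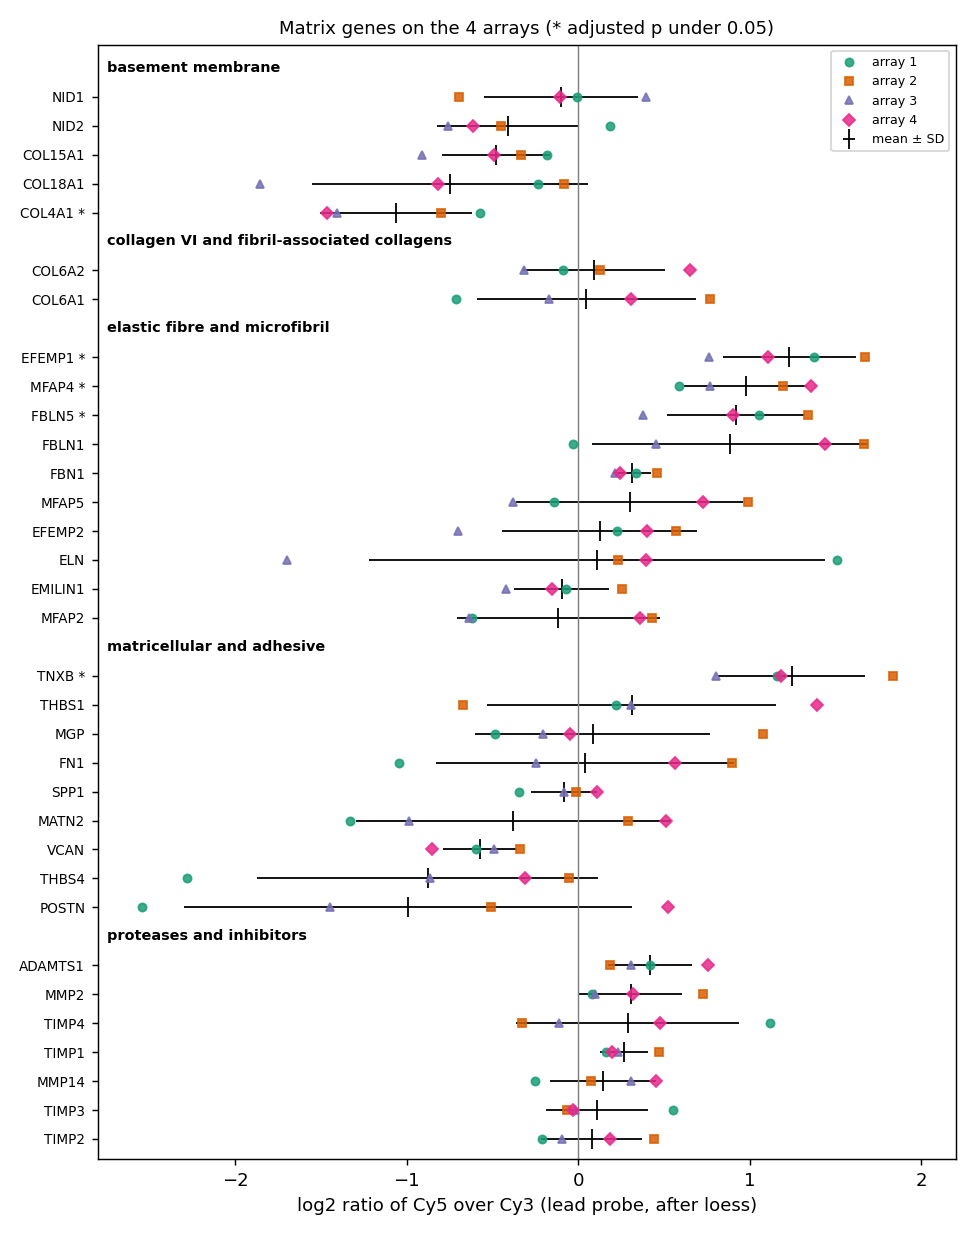
Log2 ratio of Cy5 over Cy3 for the lead probe of each of the 33 measured genes, by gene group, with 1 symbol per array and the mean ± SD of the 4 arrays as black bars. Asterisks mark the 5 called genes. EFEMP1, MFAP4, FBLN5 and TNXB lie above 0 on all 4 arrays and COL4A1 below 0 on all 4, while ELN runs from -1.70 to 1.51.

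In the basement membrane group, COL4A1 was the called gene, and the mean of each of the 5 measured members was below 0. COL4A1 encodes a chain of type IV collagen, the network that gives the sheet its strength. Its ratios were -0.57, -0.80, -1.41 and -1.46 on arrays 1 to 4, below 0 on each, and the levels of its Cy3 samples (12.06 to 12.43 log2 intensity) all lay above those of its Cy5 samples (10.77 to 11.50). The mean was -1.06 ± 0.44 (SD, n = 4), a 2.09-fold lower value in Cy5, with adjusted p = 0.0422 in limma. Its other 3 probes had means of -1.07, -0.72 and -0.65. Only the last of them was called (adjusted p = 0.0353 in limma), and it was also the one whose arrays lay closest together, from -0.85 to -0.46. COL4A2, its partner chain and its next gene in the ARS-UCD2.0 assembly, was among those not matched.

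COL15A1, a basement membrane collagen that links the sheet to the matrix around it, had ratios of -0.18, -0.33, -0.91 and -0.49. These were below 0 on all 4 arrays with a mean of -0.48 ± 0.31 (SD, n = 4), and the gene did not pass (adjusted p = 0.0966 in limma). Its other probe went the opposite way on every array, with a mean of 0.16. COL18A1 encodes the collagen from which endostatin is cut. All 5 tested COL18A1 probes were below 0 on all 4 arrays, with means from -0.98 to -0.15, yet none was called, and the smallest adjusted p was 0.0635 in limma. The lead probe gave -0.24, -0.08, -1.86 and -0.82, lowest on array 3.

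Nidogens bridge laminin and type IV collagen. NID2 gave a mean of -0.41 ± 0.42 (SD, n = 4), with array 1 above 0 at 0.18 and the other arrays between -0.76 and -0.45, and its other probe gave -0.57 with all arrays below 0 (adjusted p = 0.0638 in limma). NID1 had a lead mean of -0.10 ± 0.45 (SD, n = 4), and its other 3 tested probes ranged from -0.01 to 0.43, so its probes did not share a sign. Over the 5 genes the median was -0.48 after loess, but 0.06 after median centring of each array, a scaling under which the median of all 9425 genes moved from 0.02 to 0.43. COL4A1 kept its direction under median centring at -0.39 but was no longer called (adjusted p = 0.239 in limma), and COL15A1, NID1 and NID2 turned positive at 0.06, 0.49 and 0.07.

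**Figure D2:**
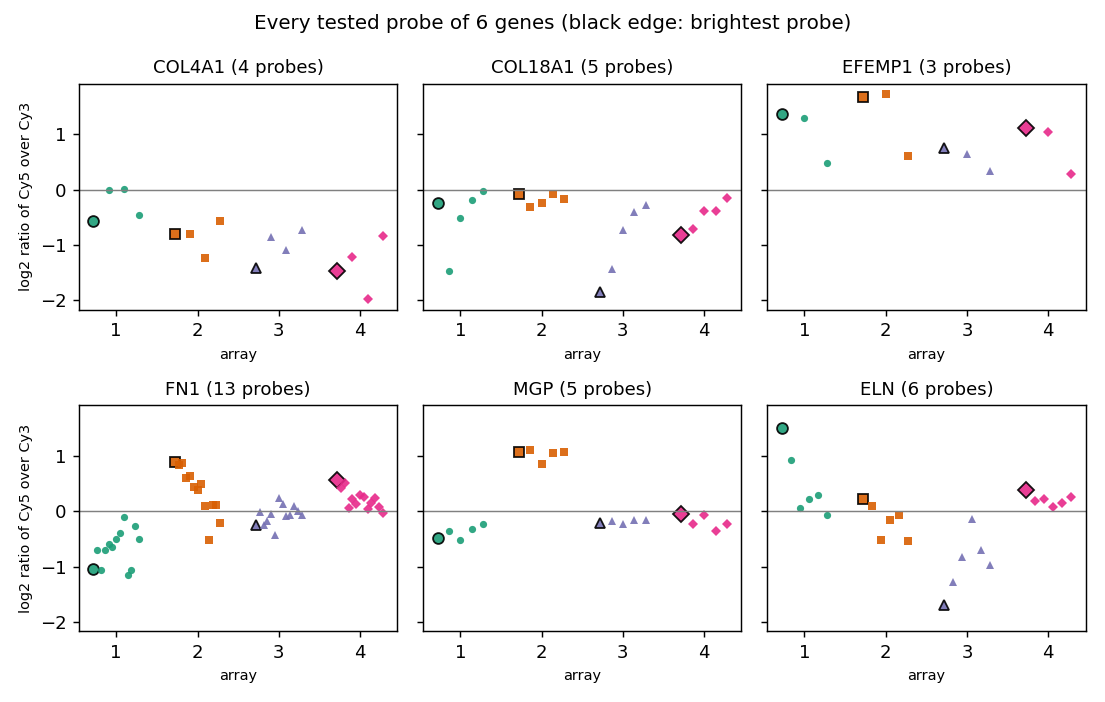
Log2 ratio of Cy5 over Cy3 of every tested probe of COL4A1, COL18A1, EFEMP1, FN1, MGP and ELN on arrays 1 to 4, with the lead probe edged in black. All 5 COL18A1 probes stay below 0, the 13 FN1 probes lie below 0 on array 1 and mostly above 0 on arrays 2 and 4, and the 5 MGP probes are above 0 on array 2 alone.

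Type VI collagen forms beaded filaments between the basement membrane and the interstitial matrix. COL6A1 had ratios of -0.71, 0.77, -0.17 and 0.31, and COL6A2, which lies next to it in ARS-UCD2.0, had -0.09, 0.13, -0.32 and 0.65. Both were below 0 on arrays 1 and 3 and above 0 on arrays 2 and 4, and their Cy5 and Cy3 levels overlapped. The mean of COL6A1 was 0.05 ± 0.64 (SD, n = 4) with a 95% interval of -0.54 to 0.63, and that of COL6A2 was 0.09 ± 0.41 (SD, n = 4) with an interval of -0.31 to 0.49. The adjusted p values were 0.929 and 0.776 in limma. After median centring of each array both were called higher, COL6A1 at 0.86 (adjusted p = 0.0281 in limma) and COL6A2 at 0.55 (adjusted p = 0.0312), where the median of all genes was 0.43.

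The elastic fibre and microfibril group held 3 of the 4 genes called higher. EFEMP1, also known as fibulin-3, is an extracellular glycoprotein of the fibulin family. Its ratios were 1.38, 1.67, 0.76 and 1.11, above 0 on all 4 arrays. Its Cy3 samples were almost level, from 9.33 to 9.39 log2 intensity, and all Cy5 samples lay above them, from 10.15 to 11.01. The mean was 1.23 ± 0.39 (SD, n = 4), a 2.35-fold higher value in Cy5 with adjusted p = 0.0305 in limma. The second of its 3 probes gave 1.18 and was called too (adjusted p = 0.0379 in limma). The third gave 0.43 with adjusted p = 0.0581, and its Cy3 signal was well above background on 1 of 4 arrays.

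MFAP4, a microfibril-associated glycoprotein that binds elastin and fibrillin, was read by 1 probe. Its ratios were 0.59, 1.20, 0.77 and 1.36, with Cy5 levels from 8.18 to 8.87 log2 intensity and Cy3 levels from 7.40 to 7.67, which did not overlap. The mean was 0.98 ± 0.36 (SD, n = 4), or 1.97-fold, with adjusted p = 0.0379 in limma. FBLN5, or fibulin-5, binds tropoelastin and is needed for elastic fibres to form. Its ratios were 1.05, 1.34, 0.38 and 0.90, all above 0 and lowest on array 3. The mean was 0.92 ± 0.40 (SD, n = 4), or 1.89-fold, with adjusted p = 0.0461 in limma. Its other probe gave 0.85 ± 0.24 (SD, n = 4) and was called as well, at 0.0316.

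Of the remaining members of the group, FBLN1, a fibulin found with elastin and in basement membranes, had the largest mean. Its ratios were -0.03, 1.67, 0.45 and 1.44, so the mean of 0.88 ± 0.80 (SD, n = 4) rested on arrays 2 and 4 and did not pass (adjusted p = 0.139 in limma), and its other probe gave 0.14. FBN1, the fibrillin that forms the backbone of the microfibril, was the most even, at 0.34, 0.46, 0.22 and 0.25. Its mean of 0.31 ± 0.11 (SD, n = 4) did not pass either (adjusted p = 0.0859 in limma). The size of this mean depended on the background correction. It was 0.525 with plain background subtraction and 0.67 with the scanner's processed signals, and FBN1 was not called under either.

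ELN, the gene of elastin itself, showed no common direction. Its lead probe gave 1.51, 0.23, -1.70 and 0.39, with a mean of 0.11 ± 1.33 (SD, n = 4), the widest spread among the 33 genes. All 6 ELN probes were below 0 on array 3 and above 0 on array 4, and the Cy3 sample of array 3 reached 12.70 log2 intensity where the other Cy3 samples lay between 10.80 and 11.48. The 95% interval of the mean ran from -1.07 to 1.29, so ratios of the size of those of EFEMP1, MFAP4 and FBLN5 lie within it.

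MFAP5, which binds fibrillin microfibrils, had a mean of 0.30 ± 0.66 (SD, n = 4), and all 3 of its probes were above 0 on arrays 2 and 4 and below 0 on array 3. MFAP2, its close relative, was split in the same arrays, at 0.43 and 0.36 on arrays 2 and 4 and -0.62 and -0.64 on arrays 1 and 3. EFEMP2, the fibulin that brings lysyl oxidase to elastin, had a mean of 0.13 ± 0.57 (SD, n = 4), and EMILIN1, an elastin interface protein, had -0.10 ± 0.28 (SD, n = 4). None of these passed, with adjusted p from 0.509 to 0.794 in limma. The median of the 10 measured genes was 0.31 after loess and 0.87 after median centring, and EFEMP1, MFAP4 and FBLN5 were called under both.

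**Figure D3:**
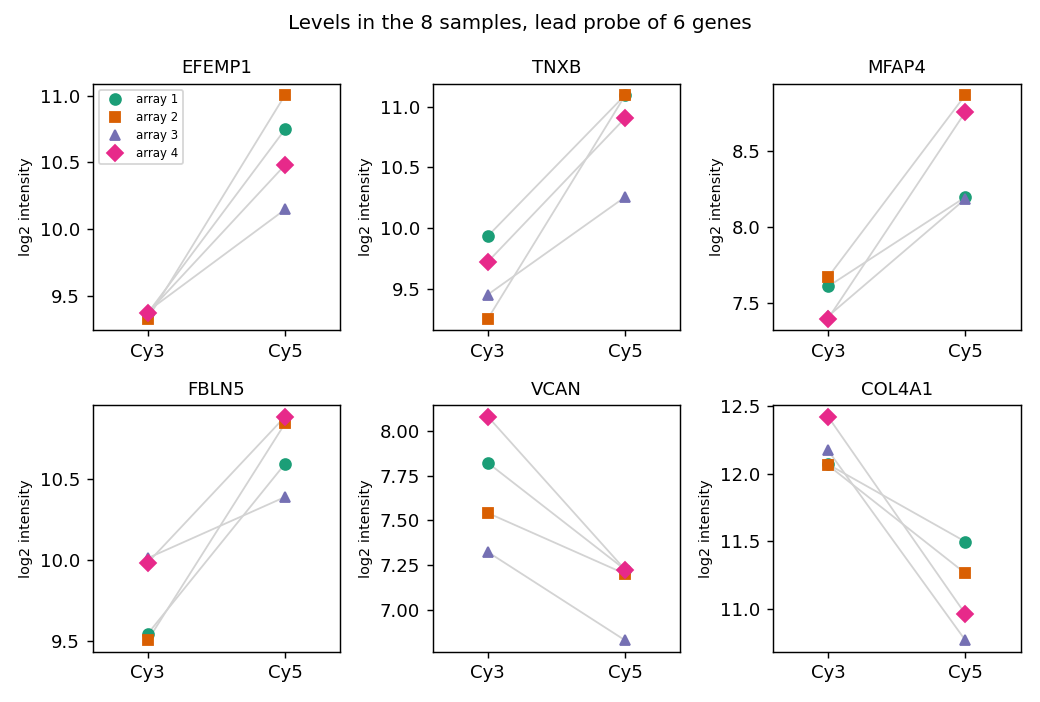
Log2 intensity of the lead probe in the Cy3 and the Cy5 sample of each array for the 6 genes whose samples did not overlap, with a line joining the samples of an array. In EFEMP1, TNXB, MFAP4 and FBLN5 every Cy5 sample lies above every Cy3 sample, and in COL4A1 and VCAN every Cy3 sample lies above every Cy5 sample.

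Among the matricellular and adhesive genes, TNXB was the called gene. It encodes tenascin-X, a glycoprotein that organises collagen fibrils in loose connective tissue, and in ARS-UCD2.0 the gene overlaps CYP21A2. Its ratios were 1.16, 1.83, 0.80 and 1.18, with Cy5 levels from 10.26 to 11.10 and Cy3 levels from 9.26 to 9.94 log2 intensity. The 2 sets did not overlap. The mean was 1.24 ± 0.43 (SD, n = 4), or 2.37-fold, with adjusted p = 0.0331 in limma at its 1 probe. It was the largest called ratio among the 33 genes, close to that of EFEMP1 at 1.23. With the scanner's processed signals MFAP4 was larger, at 1.34 against 1.32 for TNXB.

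VCAN, the large proteoglycan versican, lay at the threshold. Its ratios were -0.60, -0.34, -0.49 and -0.85, and its Cy3 levels (7.32 to 8.08 log2 intensity) all lay above its Cy5 levels (6.83 to 7.23). The mean was -0.57 ± 0.22 (SD, n = 4), or 1.48-fold lower, with adjusted p = 0.0501 in limma. VCAN was called under 7 of 11 alternative settings that kept all 4 arrays, with adjusted p from 0.0322 to 0.209 over all 11. Its mean over these 11 ran from -0.92 with the scanner's processed signals to -0.42 with median centring, and was -0.87 with plain background subtraction. These are not 11 separate checks. The scanner's processed signals and the deposited log10 ratios gave VCAN the same values, and the mean over probes repeats its only probe. Over the 33 genes, levels of Cy5 lay wholly above those of Cy3 in 4 genes, against 9.42% of all genes, and wholly below in COL4A1 and VCAN, against 6.48%.

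POSTN, THBS4 and MATN2 had low means that array 1 set in large part. POSTN encodes periostin, which promotes collagen crosslinking, and its ratios were -2.54, -0.51, -1.44 and 0.52. THBS4, a thrombospondin of muscle and tendon matrix, gave -2.28, -0.06, -0.86 and -0.31, and MATN2, the adaptor protein matrilin-2, gave -1.33, 0.29, -0.99 and 0.51. In each the Cy3 sample of array 1 stood above the other 3 Cy3 samples, at 13.73 against 10.29 to 11.14 log2 intensity for THBS4, 9.58 against 7.53 to 8.69 for POSTN, and 9.94 against 8.42 to 8.65 for MATN2. The means were -0.99 ± 1.31 for POSTN, -0.88 ± 0.99 for THBS4 and -0.38 ± 0.92 for MATN2 (SD, n = 4), none called, and without array 1 they were -0.48, -0.41 and -0.06.

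The summed level of the tendon markers was also highest in this sample. Of 5 listed (SCX, TNMD, MKX, FMOD and CHAD), 3 were measured, and their summed level in the Cy3 sample of array 1 was 11.58 log2 intensity, against 9.71 to 9.98 in the other Cy3 samples and 9.93 to 10.74 in the Cy5 samples. FMOD gave -1.07 and MKX -0.91 on array 1, and both were above 0 on the other 3 arrays, while CHAD gave -0.08 on array 1 and 0.08 on array 3. None of the 3 was called in limma, and none had an unadjusted p under 0.05. SCX and TNMD, the defining markers of tendon cells, were not among those measured. The part of tendon RNA in these values was not tested.

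FN1 encodes fibronectin, the adhesive glycoprotein on which other matrix proteins are laid down, and had the most probes of any member. Its lead probe gave -1.05, 0.89, -0.24 and 0.56, for a mean of 0.04 ± 0.87 (SD, n = 4) and adjusted p = 0.954 in limma. The 13 probes all lay below 0 on array 1, from -1.16 to -0.10, while 11 lay above 0 on array 2 and 12 on array 4. On array 3 they were split, 4 above 0 and the rest below, from -0.43 to 0.24. MGP, the calcification inhibitor matrix Gla protein, had 5 probes that shared a sign on each array. All were above 0 on array 2, from 0.85 to 1.11, and below 0 on the other 3 arrays, with a lead mean of 0.08 ± 0.68 (SD, n = 4).

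THBS1, a thrombospondin that activates latent TGF-beta, gave 0.22, -0.67, 0.31 and 1.39, with a mean of 0.31 ± 0.84 (SD, n = 4). Its samples of array 1 were both high, at 11.13 in Cy5 and 10.90 in Cy3, which gives a small ratio. SPP1, or osteopontin, had a mean of -0.08 ± 0.19 (SD, n = 4), and its Cy3 signal was well above background on 1 of 4 arrays. Neither passed (adjusted p = 0.591 and 0.664 in limma). Over the 9 measured genes the median was -0.08 after loess and 0.07 after median centring.

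None of the 7 proteases and inhibitors was called in limma, 2 had an unadjusted p under 0.05, and each had a mean above 0. ADAMTS1, a metalloproteinase that cleaves versican, had ratios of 0.42, 0.18, 0.31 and 0.76, with a mean of 0.42 ± 0.25 (SD, n = 4) and adjusted p = 0.0934 in limma. TIMP1, an inhibitor of most metalloproteinases, had 0.16, 0.47, 0.23 and 0.20, with a mean of 0.27 ± 0.14 (SD, n = 4) and adjusted p = 0.134. Both kept their sign on all 4 arrays, and their Cy5 and Cy3 levels overlapped. MMP2, a gelatinase that degrades type IV collagen, was also above 0 on all 4 arrays, with a mean of 0.31 ± 0.30 (SD, n = 4) and adjusted p = 0.216 in limma, though its other 3 probes ranged from -0.05 to 0.37.

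The other inhibitors varied by array. TIMP4, the inhibitor most restricted to heart and muscle, gave 1.12, -0.33, -0.11 and 0.48, with a mean of 0.29 ± 0.65 (SD, n = 4). TIMP3, which binds to the matrix, was at 0.56 on array 1 and between -0.07 and -0.02 on the other arrays. TIMP2, which also helps to activate MMP2, had a mean of 0.08 ± 0.29, and MMP14, the membrane-bound enzyme that does so with it, had 0.15 ± 0.31 (SD, n = 4), with its Cy3 signal well above background on 3 of 4 arrays. Their adjusted p values ran from 0.518 to 0.751 in limma. The median of the group was 0.27 after loess and 0.84 after median centring. Under median centring MMP2, TIMP1, TIMP2, TIMP4 and ADAMTS1 were called higher, with adjusted p from 0.0026 to 0.027 in limma, and MMP14 turned to -0.12. That scaling called 10013 of the 32606 tested probes higher.

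**Figure D4:**
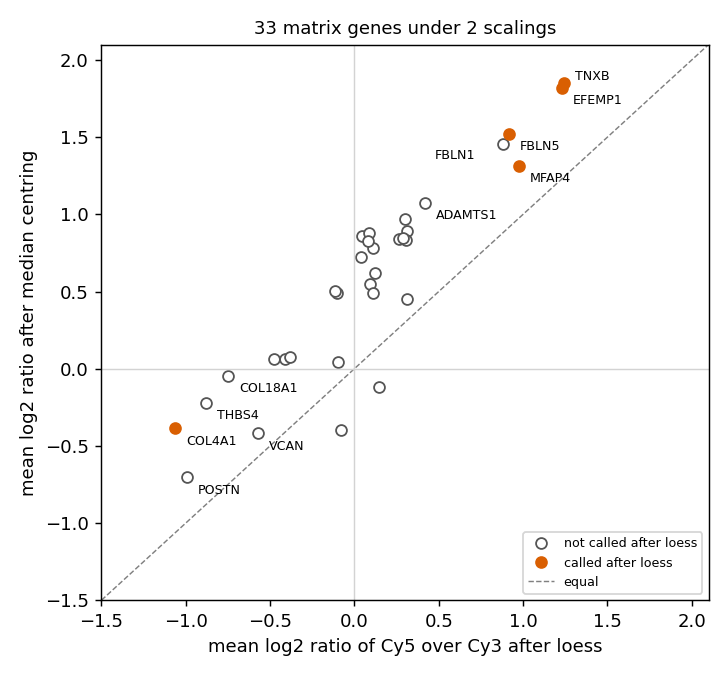
Mean log2 ratio of Cy5 over Cy3 of the 33 genes after loess (horizontal axis) and after median centring of each array (vertical axis), both over 4 arrays, with the 5 genes called after loess filled. Most genes lie above the line of equal values, and the list median moves from 0.09 to 0.62 while that of all genes moves from 0.02 to 0.43.

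The scaling mattered for how many of these genes were called. Median centring called 16 of the 33 genes, all higher. It called 10725 of the 32606 tested probes, of which 93.4% were higher, against 59.3% of the 1083 called after loess. Beside EFEMP1, TNXB, MFAP4 and FBLN5, the 16 were COL6A1, COL6A2, FBN1, FBLN1, MFAP5, THBS1, MGP, MMP2, TIMP1, TIMP2, TIMP4 and ADAMTS1. EFEMP1, MFAP4 and TNXB were called under 10 of the 11 alternative settings that kept all 4 arrays, all but the test named in the study's methods, and COL4A1 and FBLN5 under 7. The scanner's processed signals and the deposited log10 ratios gave these genes the same values, so the 11 are not separate checks. Under the study's own criterion (an unadjusted p of at most 0.05 and a change of at least 1.3-fold), 7 of the 33 genes passed, against 11.3% of all genes. They were FBLN5, EFEMP1, MFAP4, TNXB and ADAMTS1 higher and COL4A1 and VCAN lower.

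Other genes of the same structures were counted from lists beside the members. Of 6 measured further basement membrane genes, SPARC was lower in Cy5. SPARC, a collagen-binding matricellular protein, gave -1.51, -0.86, -1.90 and -1.10, with a mean of -1.34 ± 0.46 (SD, n = 4) and adjusted p = 0.0326 in limma, and all 6 of its probes were called. Of 11 measured further elastic fibre genes, LTBP2, a fibrillin-binding relative of the latent TGF-beta binding proteins, and EMILIN2, a relative of EMILIN1, were higher at 1.43 ± 0.58 and 1.09 ± 0.40 (SD, n = 4), with adjusted p of 0.0397 and 0.0359 in limma. The other LTBP2 probe gave 0.48 and was called, and the other EMILIN2 probe gave 0.35 and was not called.

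None of 12 measured matrix receptors passed in limma (4 at an unadjusted p under 0.05), with a median of -0.19, and the smallest p among them was that of BCAM, a laminin receptor, at -0.35 (adjusted p = 0.0809 in limma). None of 8 further matricellular genes passed (4 unadjusted), of which CCN5 came closest at 1.03 (adjusted p = 0.0586). Of 17 further proteases and inhibitors, SERPINH1, the collagen chaperone HSP47, was lower at -1.26 ± 0.45 (SD, n = 4, adjusted p = 0.034 in limma). Its 2 other probes gave -1.03 and -0.44, and 1 of them was called. Of 3 measured fibrillar collagens, COL1A1 at -2.05 and COL3A1 at -1.68 were lower (adjusted p = 0.029 and 0.0368 in limma). The 4 other COL1A1 probes ran from -1.48 to -0.54, with 3 called, and the 9 other COL3A1 probes from -2.08 to -0.81, with 8 called. COL1A2 at -1.34 was not called (adjusted p = 0.0565 in limma), though 1 of its 5 other probes was. After median centring the lead means of COL1A1, COL3A1 and COL1A2 were -1.32, -0.90 and -0.57, that of SPARC was -0.52 and that of SERPINH1 was -0.70.

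Markers of the cells that make this matrix were read in the same samples. All 8 measured skeletal muscle markers of 9 listed were well above background in both channels, and none was called in limma (3 at an unadjusted p under 0.05). The smallest p was that of DES at 0.71 (adjusted p = 0.0532 in limma), with its other 3 probes at 0.11 to 0.25. Summed levels of the muscle markers, 20.54 to 20.73 log2 intensity in Cy5 and 20.36 to 20.52 in Cy3, did not overlap. By gene, levels of Cy5 lay wholly above those of Cy3 in 2 of the 8 and wholly below in 1. The background was 9.42% and 6.48% of all genes, and no such background was computed for summed levels. None of the 7 fibroblast markers was called (3 unadjusted), with a median of 0.40 and summed levels of 14.92 to 15.47 log2 intensity in Cy5 and 14.64 to 15.25 in Cy3. LUM had the smallest p among them, at -0.77 (adjusted p = 0.0771 in limma), opposite in sign to the median. None of 7 endothelial markers was called either (1 unadjusted), with a median of -0.07 and summed levels of 12.16 to 12.79 and 11.98 to 12.53. TIE1 had the smallest p among them, at -0.25 (adjusted p = 0.135 in limma). Of 8 smooth muscle and pericyte markers, CNN1 was lower at -0.79 (adjusted p = 0.0364 in limma), though its other probe gave -0.13 and was not called and its value after median centring was -0.20, with summed levels of 12.61 to 12.79 in Cy5 and 12.75 to 12.88 in Cy3. Of 6 measured macrophage markers of 7 listed, CD5L was higher at 2.07 (adjusted p = 0.0134 in limma), with its other probe at 0.30 and not called. Summed levels of the macrophage markers, 11.30 to 11.92 in Cy5 and 10.83 to 11.11 in Cy3, did not overlap. By gene, levels of Cy5 lay wholly above those of Cy3 in 2 of the 6 and wholly below in 0. None of 5 measured adipocyte markers or 5 Schwann cell markers was called (1 and 2 unadjusted), with medians of -0.26 and 0.01. The smallest p was that of FABP4 at -1.19 (adjusted p = 0.129 in limma) and of S100B at -0.55 (adjusted p = 0.132 in limma). The part of these cells in the values of the 33 genes was not tested.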

How the data were processed

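Gene expression was measured in semitendinosus muscle on 4 dual-colour arrays (arrays 1 to 4, replicates 1 to 4 in the labels) of 4 bulls per breed. Deposited as intensity by the authors were the scanner files of Agilent Feature Extraction 10.7.3.1, with the uncorrected median signal of each spot and of the area around it. The log10 ratios of Cy5 over Cy3, per the file headers, were made by the authors' scanner software from background-subtracted, dye-normalized signals, and spots had been annotated on Btau 3.1. The statistics of the study were made in GeneSpring.

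The design named mean signals if present, and the files hold median signals, which were used. Background was corrected by normexp (offset 50) and ratios by loess within arrays, in which control spots had weight 0. Spots marked as outliers (7 to 14 on an array) were dropped, and copies of a probe were averaged. Probes had to be well above background in the same channel on all 4 arrays (for a probe on several spots, in at least 50% of them) with values on at least 3 arrays. This left 32606 of 43653 probes. The null of a ratio of 0 was tested in limma 3.58.1 (lmFit, then eBayes) under R 4.3.3 with data.table (version 1.17.8) and statmod 1.5.0, two-sided, with Benjamini-Hochberg adjustment. Levels per sample came from limma's separate-channel analysis (loess, then Aquantile). The number of arrays limits the precision, and all arrays were on 1 slide, so no batch could be set as a block. The fits were also run on simulated ratios, drawn independently for each probe and array. These held no dye or array effect, so they cannot bear on the dye orientation or the scaling.

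By accession 23492 probes were named through RefSeq genes of ARS-UCD2.0. Every member was read at its brightest tested probe, called members and the 2 members of each group with the smallest p with every array, and from each other list the called genes or else the gene with the smallest p. Other genes were named after their values were seen. The members and lists were chosen with earlier results of these data known. Alternatives covered the background (none, plain subtraction), the signals (processed, or the deposited log10 ratios), median centring, the filter on dim probes (none, stricter), the variance prior (trend and robust), the methods' t-test, a fit by channel, the mean over a gene's probes, and the loss of each array.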

Additional observations from a re-analysis of the deposited data

Results flagged for a closer look

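The lead probe of TIMP3 was the 1 lead probe of 33 in which an array passed Dixon's limit for a value apart from the rest. Array 1 gave 0.56 and the other 3 arrays lay between -0.07 and -0.02, so that the gap took 0.929 of the whole range (the 95% critical value for 4 values was used). Chance alone takes a gap past that limit in about 1 of 20 groups of values, and 33 were checked here. On array 1 the Cy3 level of TIMP3 was 7.78 log2 intensity, against 8.14 to 8.60 in the other Cy3 samples, while its Cy5 level of 8.34 lay within the range of the other Cy5 samples. Without array 1 the mean was -0.04. Its other 2 probes gave 0.30 and 0.32 on array 1, and one of them gave 0.26 on array 4, so array 1 did not stand apart there to the same degree.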

How the results depend on the processing

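The 5 calls kept their direction under every alternative run, but their number did not hold. Members called became 16 (all higher) with median centring, 3 with no filter on dim probes, 0 with the methods' t-test after adjustment (9 at an unadjusted p under 0.05) and 0 to 0 when each array was left out in limma (11 to 14 at an unadjusted p under 0.05). Called member probes, 8 in the reported fit, became 34 with median centring, 14 in the separate-channel fit, 14 under the study's criterion, 0 with the t-test after adjustment (20 unadjusted) and 0 to 0 without an array (22 to 29 unadjusted). Over all probes, 1083 became 10725 with median centring, 1666 with a trend and robust prior, 3210 in the separate-channel fit, 2887 under the study's criterion, 0 with the t-test after adjustment (5936 unadjusted) and 5 to 115 without an array.

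COL4A1 was not called with median centring (-0.39), no filter (adjusted p = 0.0519 in limma) or the mean over probes (-0.88, adjusted p = 0.0516), and FBLN5 with processed signals or the series table (adjusted p = 0.0539) or no filter (adjusted p = 0.0571). The cause was not tested. No called gene changed sign. With median centring COL15A1 was 0.0618, NID1 0.49, NID2 0.0656, MFAP2 0.50, EMILIN1 0.0448, MATN2 0.0741 and MMP14 -0.12. As means over probes NID1 was 0.0925, COL6A2 -0.0023, ELN -0.10 and FN1 -0.0365, and SPP1 was 0.13 from the processed signals and the series table. With each array left out, values crossed 0 for NID1 (-0.27 to 0.10), COL6A1 (-0.19 to 0.30), COL6A2 (-0.0926 to 0.23), EFEMP2 (-0.0236 to 0.40), MFAP2 (-0.30 to 0.0575), ELN (-0.36 to 0.71), EMILIN1 (-0.21 to 0.0117), FN1 (-0.24 to 0.40), THBS1 (-0.0489 to 0.64), MGP (-0.25 to 0.27), SPP1 (-0.15 to 0.0056), TIMP2 (-0.0419 to 0.18) and TIMP3 (-0.0396 to 0.17). SPP1 and MMP14 had no value under the stricter filter, since their Cy3 signal was near background. Each ratio already compares the HER and the HF sample that share an array, so the test of ratios against 0 is itself paired. No separate paired analysis was run.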
